A study of Mus musculus with 24 samples.

Results

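The genes described here were Palld, Sorcs2 and Arhgap22 of the mouse, each with the 50 kb on either side of its gene body in mm10. They were chosen by a readout of these data: the best-ranked NIH3T3 H3K27ac peaks of DMSO control cells that no peak of purmorphamine-treated cells overlapped lay in their introns. The 3 windows held 254 of the 368246 peaks that 7 lists placed on chromosomes 1 to 19, X and Y. Of these, 109 were at Palld, 98 at Sorcs2 and 47 at Arhgap22. The control list gave 98 of them and the purmorphamine list 72. The limb bud lists gave 31 (WT H3K27ac), 18 (Shh-/- H3K27ac), 16 (WT H3K4me2), 13 (Shh-/- H3K4me2) and 6 (Shh-/- H3K27me3).

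The study used ChIP-seq to ask how chromatin marks of enhancers depend on Hedgehog signaling. NIH3T3 is an established mouse fibroblast line whose cells respond to Hedgehog. Both NIH3T3 groups were kept in 0.5% serum and treated for 48 hours, one with 400 nM purmorphamine, an agonist of the Hedgehog receptor component Smoothened, and one with its solvent DMSO. The sample labels of both groups also name LIF, which the study's methods do not. Limb buds were E10.5 forelimb buds of 32 to 35 somites, pooled over litters on a Swiss Webster background, from embryos null for Shh, the Hedgehog ligand of the limb, or from WT controls, which by the study's methods were WT and heterozygous littermates together. The 24 libraries formed 14 groups, with 2 ChIP replicates per condition. The authors deposited 1 peak list per condition rather than per replicate, and how the replicates were combined is not given in the sources used here, so no value has a replicate spread and no difference between lists was tested. The samples hold H3K27me3 of Shh-/- limb buds alone, so that mark has no WT list. The study's methods name H3K27ac antibodies from Diagenode and Abcam for conventional ChIP, while its resources table gives the Abcam one for ChIP-qPCR. The antibody may therefore have differed between the limb and the NIH3T3 experiments, so levels are compared only within a cell source.

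Acetylation of histone H3 at lysine 27 (H3K27ac) marks active promoters and enhancers, dimethylation of lysine 4 (H3K4me2) marks promoters and enhancers more broadly, and trimethylation of lysine 27 (H3K27me3) is laid down by Polycomb complexes at silenced developmental genes. Palld encodes palladin, a scaffold that bundles actin in stress fibres and focal adhesions and is prominent in fibroblasts. Sorcs2 encodes a sorting receptor of the VPS10 family that, with the p75 neurotrophin receptor, binds precursors of neurotrophins. Arhgap22 encodes a GTPase-activating protein that turns off Rac, the small GTPase of lamellipodia.

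As a check of the cell labels, all 8 fibroblast markers had an H3K27ac peak at a start site in both NIH3T3 lists, and none of the 4 blood or 4 muscle precursor markers did. Of 4 ectoderm and 4 endothelium markers, the purmorphamine list held Cdh1 and Pecam1 and the control list held none. In the limb, 8 of 8 mesenchyme markers had an H3K27ac peak in WT and 7 in Shh-/-, where Hoxd13 had none. The limb H3K27ac lists of both genotypes held 5 of the 8 fibroblast markers (Col1a2, Col3a1, Fn1, Pdgfrb and Vim), and both NIH3T3 lists held 3 of the 8 limb mesenchyme markers (Prrx1, Meis2 and Fgf10). Of the ectoderm, endothelium, muscle precursor and blood lists, the limb H3K27ac lists held 0 to 2 markers each, where Cdh5 and Tal1 had a WT peak and Pecam1, Pax3 and Lbx1 had a Shh-/- peak. The part of these other cells in the limb values was not tested.

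The peaks that chose Sorcs2 and Arhgap22 are shown by the middle 300 bases of each. They are printed because these peaks were acetylated in control cells and free of a called peak after purmorphamine. The bases were read from GRCm38.p6, the assembly that mm10 names, on the plus strand. The summit of the Arhgap22 peak (33231237) lay inside the printed bases, and that of the Sorcs2 peak (36374262) lay outside them. Capitals mark matches on either strand to 6 motifs: GLI (GACCACCCA), AP-1 (TGANTCA), TEAD (GGAATG), RUNX (TGTGGT), the E-box CAGCTG and the CArG box, the site of serum response factor.
Sorcs2, chr5:36373775-36374074: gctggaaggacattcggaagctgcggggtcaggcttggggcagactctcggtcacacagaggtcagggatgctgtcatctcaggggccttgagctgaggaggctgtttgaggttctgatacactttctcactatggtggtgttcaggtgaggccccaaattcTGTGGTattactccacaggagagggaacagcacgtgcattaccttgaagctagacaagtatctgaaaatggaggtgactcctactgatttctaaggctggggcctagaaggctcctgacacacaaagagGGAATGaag
Arhgap22, chr14:33231200-33231499: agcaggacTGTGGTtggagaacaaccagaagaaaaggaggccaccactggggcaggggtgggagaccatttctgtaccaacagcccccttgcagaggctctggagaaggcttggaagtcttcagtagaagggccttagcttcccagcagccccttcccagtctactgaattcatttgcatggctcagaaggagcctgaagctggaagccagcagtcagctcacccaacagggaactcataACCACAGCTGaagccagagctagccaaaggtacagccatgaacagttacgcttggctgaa

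The Sorcs2 sequence held 1 RUNX and 1 TEAD match, which 20.2% and 16.2% of control peaks have in the 300 bases around their middle. The Arhgap22 sequence held 2 RUNX matches and an E-box, and the second RUNX match overlaps the E-box. The E-box occurs in the 300 bases around the middle of 15.7% of control peaks. Over their whole lengths, the Arhgap22 peak held 6 RUNX matches and 5 E-boxes, against a median of 1 of each in 2438 control peaks of a width within 10% of its own. Neither peak held the GLI motif over its whole length, which 1.01% of control peaks of a width like the Sorcs2 peak and 1.93% of those of a width like the Arhgap22 peak do. A motif match is a description of these letters, not of binding.

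All 3 peaks were intronic. The Palld peak (chr8:61802150-61803849, 1700 bp) was ranked 4784 of the 91023 deposited control peaks and reached a log2 ratio of ChIP to input of 4.46. The nearest purmorphamine peak was 41.8 kb away, at the internal Palld start site. The Sorcs2 peak (chr5:36373350-36374499, 1150 bp) was ranked 4969, with a log2 ratio of 4.30, and a purmorphamine peak of 250 bp lay 2.55 kb from it. The Arhgap22 peak (chr14:33230300-33232399, 2100 bp) was ranked 5307, with a log2 ratio of 4.49 and a distance of 13.1 kb. The 3 control-only peaks ranked next were close behind, at 5415 (intergenic, on chromosome 1), 6433 (in an intron of Cdkal1) and 6577 (intergenic, on chromosome 19), with log2 ratios of 4.42, 4.17 and 4.23. These values chose the genes and carry no test. The best purmorphamine-only peaks lay higher in their own list, with ranks of 96 (at the Gli1 start), 459 and 485.

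Palld spans chr8:61511433-61902690 on the minus strand (ENSMUSG00000058056.16). In NIH3T3 cells its window held 45 control peaks covering 23.9 kb, or 4.85% of the window, and 18 purmorphamine peaks covering 11.9 kb, or 2.41%. Of the control peaks 30 were control-only (66.7%, 95% Wilson interval 52.1 to 78.6), beside 41.1% of the whole control list. Of the purmorphamine peaks 3 were purmorphamine-only (16.7%, 5.84 to 39.2), beside 36.5% of that list. Since the same contrast chose the gene, these shares are a description.

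The control-only peaks of Palld were gathered in long stretches. From 61769500 to 61831449 there were 11 control peaks in a row with no purmorphamine counterpart, covering 5550 bp and including the peak that chose the gene. They lay in a stretch of 168 kb, from 61760350 to 61928049, without any purmorphamine peak, which takes in the 5′ part of the gene and its upstream end. Beside the peak that chose the gene, this run held 4 peaks in the better-ranked 50% of the list: 61804000 to 61804749 (rank 29272, log2 ratio 3.08), 61776500 to 61776999 (rank 38399, 2.84), 61831000 to 61831449 (rank 39431, 2.73) and 61775200 to 61776099 (rank 42484, 2.69). A second run of 10 control-only peaks, from 61629350 to 61753499, held a block of 5 peaks between 61695350 and 61698949 of which 3 were in the better-ranked 50%, with ranks of 19065, 29263 and 32708 and log2 ratios of 3.45, 3.08 and 2.96. The last of the 9 such peaks at Palld (61592250 to 61592449, rank 35655, 2.84) lay 251 bp from the shared peak of a start site. Runs of 10 or more were 233 of the 16345 runs of the control list and held 3.44% of its peaks.

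Palladin has several start sites, and the acetylation at them was shared. The start at 61591142 lay under a control peak of 2300 bp (rank 3387, log2 ratio 4.57) and a purmorphamine peak of 2100 bp (rank 8228, 4.26). The start at 61760089 lay under a control peak of 1150 bp (rank 18386, 3.65) and a purmorphamine peak of 900 bp (rank 24242, 3.30). The start sites farthest upstream, at 61902669 and 61902690, had no peak in any of the 7 lists. None of the 30 control-only peaks lay within 1 kb of a protein-coding start, and 28 overlapped the Palld gene. The best-ranked NIH3T3 peak of the window in both lists was at the start of the neighbour Cbr4 (61487650 to 61488849 in control, rank 2008, and to 61488649 with purmorphamine, rank 2281), which encodes a carbonyl reductase of mitochondria. The start of Ddx60, an antiviral helicase, also had a shared peak.

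For comparison, the promoter sequences (RefSeq, GRCm38.p6, minus strand, 250 bases before the start to 50 after) of the Palld start with peaks in all 6 H3K27ac and H3K4me2 lists and of a start without a peak are shown, with capitals for the same motifs.
Start with peaks, chr8:61591090-61591389: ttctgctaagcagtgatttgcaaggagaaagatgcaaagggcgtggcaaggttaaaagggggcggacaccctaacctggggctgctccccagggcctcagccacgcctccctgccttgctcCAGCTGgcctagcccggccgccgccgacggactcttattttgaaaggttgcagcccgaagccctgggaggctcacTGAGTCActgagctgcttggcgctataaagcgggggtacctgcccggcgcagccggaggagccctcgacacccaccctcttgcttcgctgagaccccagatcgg
Start without a peak, chr8:61902658-61902957: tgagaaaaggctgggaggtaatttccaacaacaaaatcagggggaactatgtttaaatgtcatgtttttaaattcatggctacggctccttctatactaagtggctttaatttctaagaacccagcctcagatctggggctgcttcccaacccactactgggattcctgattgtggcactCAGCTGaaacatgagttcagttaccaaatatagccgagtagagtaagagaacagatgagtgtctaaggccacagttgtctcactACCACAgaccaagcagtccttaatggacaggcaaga
The first was 63% G or C and held an AP-1 match and an E-box, and the second was 44% G or C and held an E-box and a RUNX match. The promoter of the start at 61760089, which had peaks in 5 of these 6 lists, was 57.7% G or C and held a TEAD match, as 14.7% of promoters do. AP-1, E-box and RUNX matches occur in 7.81%, 16.3% and 16.8% of 32851 RefSeq promoters.

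Sorcs2 spans chr5:36017180-36398139 on the minus strand (ENSMUSG00000029093.14). Its window held 34 control peaks over 22.6 kb (4.70% of the window) and 37 purmorphamine peaks over 15.2 kb (3.16%). It held 18 control-only peaks (52.9%, 36.7 to 68.5), beside 41.1% of the whole control list, and 22 purmorphamine-only peaks (59.5%, 43.5 to 73.7), beside 36.5% of the whole purmorphamine list. The first interval contains the share of the whole list.

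The 2 kinds were spread unevenly over Sorcs2. In the 25% of the gene next to its start there were 20 control peaks over 12.8 kb, 14 of them control-only, and 11 purmorphamine peaks over 2.34 kb, 4 of them purmorphamine-only. In the 25% next to its end there were 6 control peaks over 3.65 kb, none of them control-only, and 12 purmorphamine peaks over 5.95 kb, 8 of them purmorphamine-only. One of the 25% pieces between them (36112420 to 36207659) held no peak in any list. The other held 3 purmorphamine-only peaks and no control-only peak. The flank beyond the end of the gene held 5 purmorphamine-only and 1 control-only peak, and the flank before its start 2 and 3. The purmorphamine-only peaks were weak ones: their log2 ratios ran from 2.24 to 2.99, and 2 of the 22 were in the better-ranked 50% of their list, at 36084050 to 36084449 (rank 33791, 2.99) and 36069800 to 36070199 (rank 36523, 2.93). Of the 18 control-only peaks 7 were in the better-ranked 50% of theirs, with ratios up to 4.30. After the peak that chose the gene, the best was intronic at 36355650 to 36356799 (1150 bp, rank 19816, 3.53), 551 bp from a purmorphamine peak, and the next was upstream of the gene at 36414900 to 36415199 (rank 29477, 3.04). The remaining 4, at 36382250, 36372500, 36006800 and 36358750, had ranks of 38190, 40368, 40481 and 41940.

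At the 5′ cluster of Sorcs2, the shared peaks also differed in width. Beside the peak that chose the gene, a control peak of 2900 bp (36374750 to 36377649, rank 10556, log2 ratio 4.00) was met by 1 purmorphamine peak of 250 bp (rank 37267, 2.94). At the other end, a control peak of 1750 bp (36074300 to 36076049, rank 12440, 3.85) was met by a purmorphamine peak of 2150 bp (36074100 to 36076249, rank 4849, 4.56), the best-ranked purmorphamine peak of the window. The Sorcs2 start had 1 control peak of 850 bp (rank 10920, 3.94) and 2 purmorphamine peaks, of which the better was 650 bp (rank 15848, 3.74). The neighbour Afap1, an actin filament adaptor, held in its part of the window a shared intragenic peak of 2650 bp in each list. The start of Psapl1, a prosaposin-like gene inside Sorcs2, had no peak in any list.

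Arhgap22 spans chr14:33214026-33369934 on the plus strand (ENSMUSG00000063506.14). Its window held 19 control peaks over 16.1 kb (6.29%) and 17 purmorphamine peaks over 7.30 kb (2.85%). Of the control peaks 10 were control-only (52.6%, 31.7 to 72.7), an interval that contains the 41.1% of the whole list. Of the purmorphamine peaks none was purmorphamine-only (0%, 0 to 18.4), beside 36.5% of that list. Of the base pairs under purmorphamine peaks 97.3% were under control peaks, but 44.1% of the base pairs under control peaks were under purmorphamine peaks. Over the whole lists these shares were 70.4% and 66.0%.

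The strongest Arhgap22 site was acetylated in both lists, as 1 peak in control that 6 narrower purmorphamine peaks overlapped. The control peak was 4950 bp long (33247900 to 33252849), with rank 1087 and a log2 ratio of 5.09. The best purmorphamine peak inside it was 1850 bp long (33249300 to 33251149), with rank 5495 and a log2 ratio of 4.43. Between 33214800 and 33245149, 5 control peaks in a row had no purmorphamine counterpart, and the peak that chose the gene was the best of these. The other control-only peaks in the better-ranked 50% were 33212850 to 33213099 (rank 39189, 2.83), before the gene, and 33214800 to 33215349 (rank 44640, 2.71), in an intron. At the 5′ end of the gene a control peak of 500 bp (rank 23761, 3.22) met a purmorphamine peak of 100 bp (rank 78186, 2.33). At the internal start at 33319703 a control peak of 500 bp (rank 23714, 3.23) met purmorphamine peaks of 250 bp and 150 bp, of which the better had rank 42133 and a log2 ratio of 2.93. The neighbours Wdfy4 and Mapk8 overlapped the window and no NIH3T3 peak of it.

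**Figure D1:**
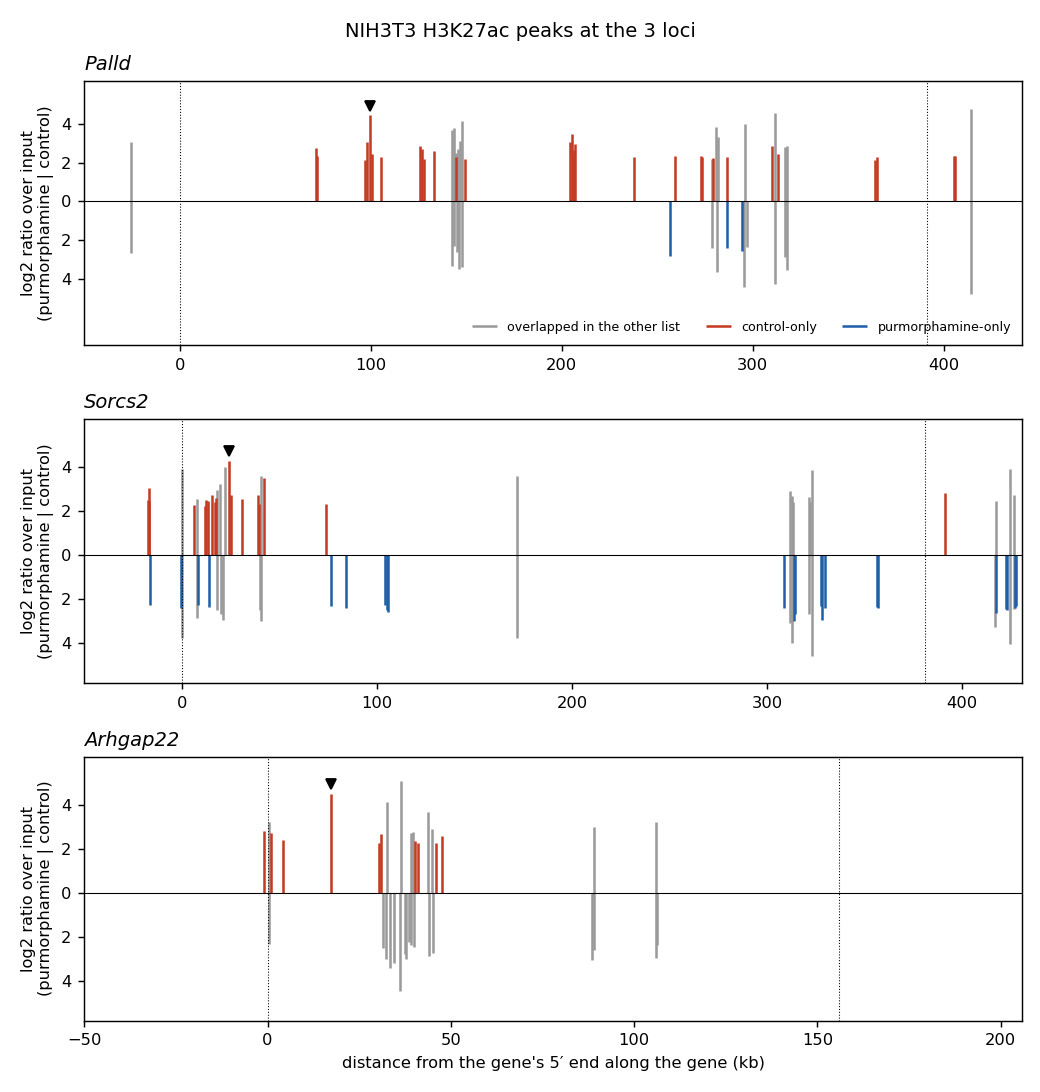
NIH3T3 H3K27ac peaks in the windows of Palld, Sorcs2 and Arhgap22, by distance in kb from the 5′ end of the gene (dotted lines: gene ends); bars up are control peaks and bars down purmorphamine peaks, with the height giving the log2 ratio of ChIP to input, and black triangles mark the peaks that chose the genes. Red control-only bars number 30 at Palld, 18 at Sorcs2 and 10 at Arhgap22, blue purmorphamine-only bars number 22 at Sorcs2 and 3 at Palld, and Arhgap22 has none.

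Counted over the 3 windows, 58 of 98 control peaks were control-only (59.2%, 49.3 to 68.4) and 25 of 72 purmorphamine peaks were purmorphamine-only (34.7%, 24.8 to 46.2). Without the 3 peaks that chose the genes, the first share was 57.9%. The same contrast chose the genes, so all shares here are a description. Among the better-ranked 50% of the control list the share was 19 of 53 (35.8%, 24.3 to 49.3), beside 16.9% of all peaks in those 50%. The 3 peaks that chose the genes are among these 19 by construction. For the purmorphamine list it was 2 of 29 (6.90%, 1.91 to 21.96), beside 16%. Peaks lie in runs and are not independent, so the intervals cover counting error only. Of the 58 control-only peaks 13 were within 500 bp of a purmorphamine peak and 20 were over 10 kb from one, and 18 of these 20 were at Palld. Of all control-only peaks 34.5% were within 500 bp and 18.3% over 10 kb.

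The difference between control and purmorphamine in the share of the window under peaks was 2.44 percentage points at Palld, 1.54 at Sorcs2 and 3.44 at Arhgap22. Over the 21911 windows of protein-coding genes, drawn the same way, the median difference was 0, and control was higher in 10036 and lower in 6678. At or above the value of Palld were 6.71% of these windows, for Sorcs2 11.6% and for Arhgap22 3.96%. With the peak that chose the gene left out, the differences were 2.097, 1.30 and 2.62 points, and 8.22%, 13.8% and 6.09% of windows were at or above them. The same contrast chose the genes, and the control-only peaks beside the left-out peak remain, so these values are a description.

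**Figure D2:**
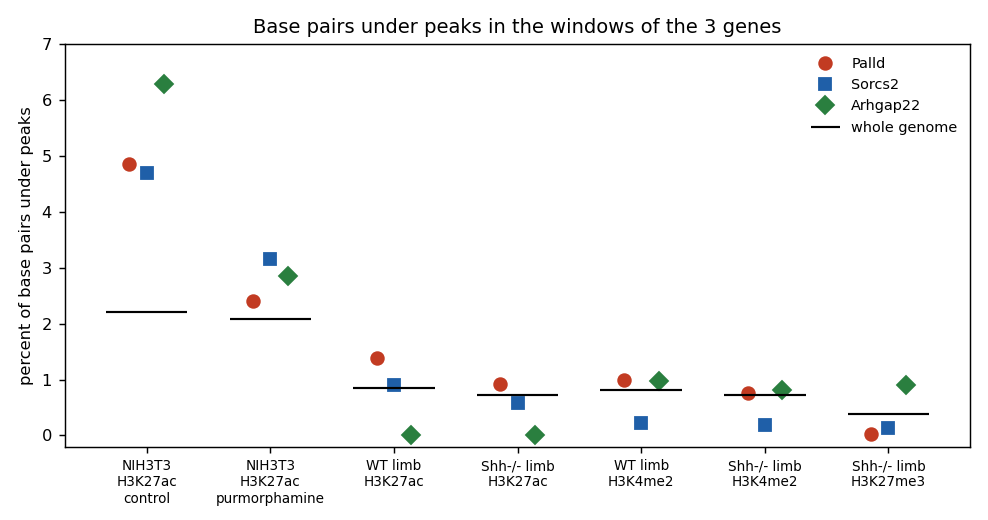
Percent of base pairs under peaks in the window of each gene (symbols) and in the whole genome (lines) for the 7 lists. In control NIH3T3 cells the 3 genes were at 4.70% to 6.29%, above the genome's 2.21%, and with purmorphamine at 2.41% to 3.16%, nearer to its 2.08%. Of protein-coding windows 31.8%, 32.7% and 24.0% were at or above the control values of Palld, Sorcs2 and Arhgap22. Arhgap22 was at 0 for H3K27ac in both limb genotypes.

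The limb lists did not enter the choice of the genes. In forelimb buds the genes differed among themselves. Palld carried H3K27ac, at 17 WT peaks over 6.80 kb and 9 Shh-/- peaks over 4.55 kb. Sorcs2 carried 14 WT peaks over 4.30 kb and 9 Shh-/- peaks over 2.75 kb. The whole WT list was also the larger, with 49679 peaks over 0.853% of the genome against 43916 over 0.723% in Shh-/-. Arhgap22 had no H3K27ac peak in either genotype, as was the case in 24.3% of protein-coding windows in WT and 26.8% in Shh-/-.

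At Palld the strongest limb H3K27ac was at 61606150 to 61608449 in WT (2300 bp, rank 6541, log2 ratio 4.39) and at 61606000 to 61608299 in Shh-/- (2300 bp, rank 3130, 4.76). This intronic site also had a shared NIH3T3 peak, of rank 8966 in control and 7279 with purmorphamine. The start at 61591142 was acetylated in both genotypes (rank 6667, 4.37 in WT, and rank 8870, 3.83 in Shh-/-). The start at 61760089 had H3K27ac in WT (350 bp, rank 16202, 3.49) and no peak in Shh-/-, while H3K4me2 was there in both (rank 11384, 3.52 in WT, and rank 6773, 3.87 in Shh-/-). Of the WT peaks 12 of 17 were WT-only (70.6%, 46.9 to 86.7), beside 48.5% of the WT list, and of the Shh-/- peaks 4 of 9 were Shh-/- only (44.4%, 18.9 to 73.3), beside 38.4%. Both intervals contain the share of the whole list. The widest of the 12 WT-only peaks was the one at the start. Of the Shh-/- only peaks, those starting at 61823550 and 61832250 had FDRs of 0.0630 and 0.0521.

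At Sorcs2 part of the limb acetylation lay over the control-only cluster of the fibroblasts. The 25% of the gene next to its start held 9 of 14 WT and 5 of 9 Shh-/- peaks. The next 25% held 4 and 3, and no control-only NIH3T3 peak. The best-ranked limb peak of the window in each genotype overlapped the very peak that chose the gene, with 600 bp in WT (36373800 to 36374399, rank 10736, log2 ratio 3.90) and 850 bp in Shh-/- (36373700 to 36374549, rank 18216, 3.17). Of the 18 control-only NIH3T3 peaks at Sorcs2, 6 overlapped a limb H3K27ac peak of either genotype, against 4 of 30 at Palld. At Arhgap22 it was 0 of 10 by construction, since that window had no limb H3K27ac peak, and its peaks also enter the pooled counts. Over the 3 windows 10 of 58 control-only peaks overlapped one (17.2%, 9.64 to 28.9), beside 5.48% of all control-only peaks. Of the shared control peaks 6 of 40 (15.0%, 7.06 to 29.1) overlapped limb acetylation, beside 31.3% of all shared ones. Of the 25 purmorphamine-only peaks 2 did (8%, 2.22 to 24.97), near the 6.55% of all purmorphamine-only peaks. At Sorcs2 WT-only peaks were 6 of 14 (42.9%, 21.4 to 67.4), beside 48.5% of the WT list, and Shh-/- only peaks 2 of 9 (22.2%, 6.32 to 54.7), beside 38.4%, and both intervals contain the share of the whole list.

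H3K4me2 marked starts at all 3 genes. At Sorcs2 it covered the start in both genotypes, with 950 bp in WT (rank 6283, log2 ratio 3.88) and 900 bp in Shh-/- (rank 339, 4.94). At Arhgap22 it covered the internal start at 33319703, with 900 bp in WT (rank 1500, 4.45) and 850 bp in Shh-/- (rank 303, 4.96). A further pair of Arhgap22 sites was marked in both genotypes, at 33350900 to 33351699 in WT (rank 7960, 3.75) and 33351050 to 33351549 in Shh-/- (rank 4198, 4.10), and inside the large NIH3T3 peak (rank 13736, 3.37 in WT, and rank 2763, 4.27 in Shh-/-). Over the 3 windows 6 of 16 WT peaks were WT-only (37.5%, 18.5 to 61.4), beside 25.7% of the list, and 2 of 13 Shh-/- peaks were Shh-/- only (15.4%, 4.33 to 42.2), beside 22.5%.

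H3K27me3, measured here in Shh-/- limb buds, overlapped H3K4me2 at Sorcs2 and Arhgap22. A peak of 650 bp (36396900 to 36397549, rank 1738 of 20846, log2 ratio 3.56) lay next to the Sorcs2 start and overlapped the H3K4me2 peaks of both genotypes. That start had no limb H3K27ac peak and had one in both NIH3T3 lists. At Arhgap22 a peak of 1500 bp (33319850 to 33321349, rank 2140, 3.38) lay at the internal start, and 3 smaller ones lay near the H3K4me2 site at 33350900, where the best had rank 5096 (FDR 0.00215) and the others had FDRs of 0.0528 and 0.193. Palld itself had none, and the single peak of its window was a 100 bp peak in Ddx60 with an FDR of 0.121. H3K27me3 covered 0.899% of the Arhgap22 window, 0.135% of the Sorcs2 window and 0.0204% of the Palld window, against 0.385% of the genome.

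**Figure D3:**
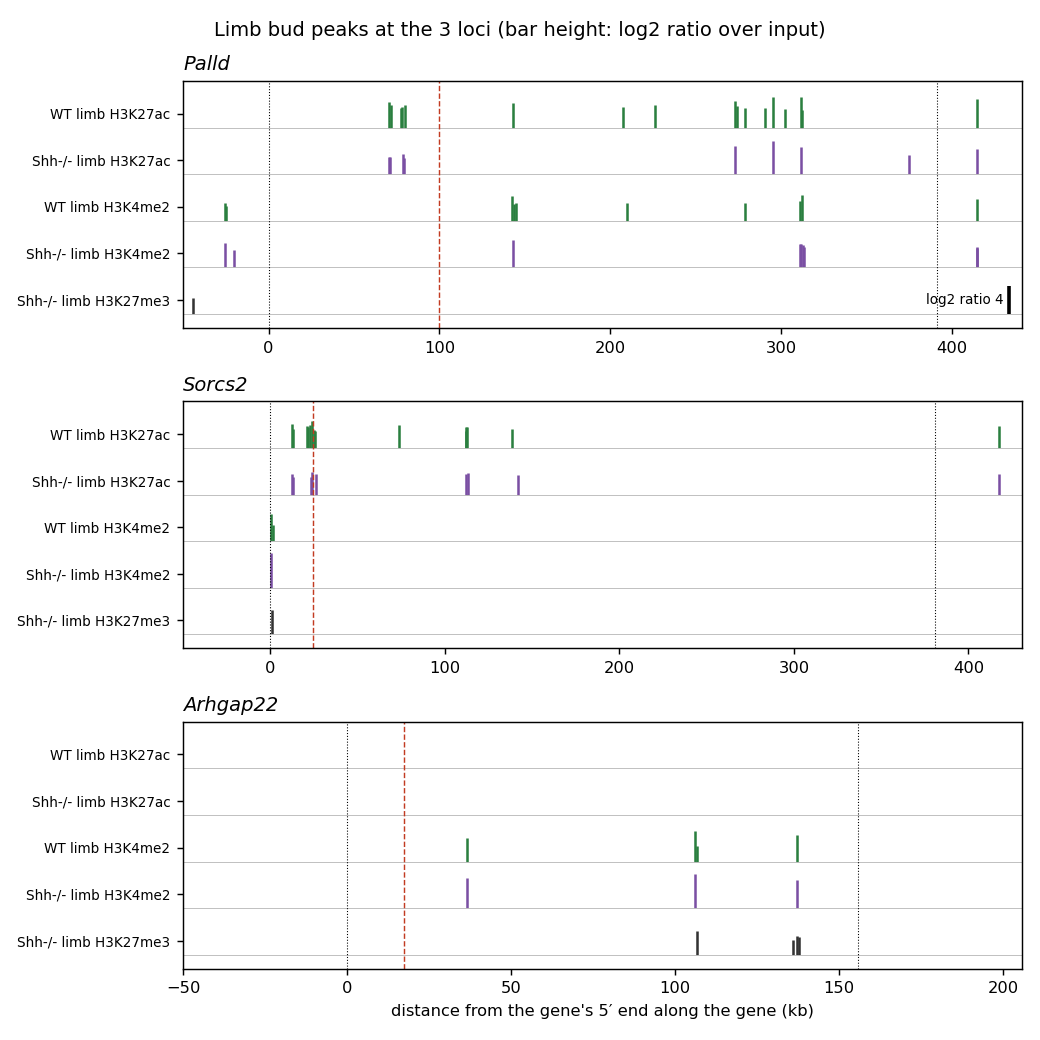
Limb bud peaks in the windows of Palld, Sorcs2 and Arhgap22 by distance in kb from the 5′ end of the gene, one row per list, with bar height giving the log2 ratio of ChIP to input (scale bar: 4); the red dashed line is the NIH3T3 control-only peak that chose the gene. The line meets limb H3K27ac at Sorcs2 alone, and Arhgap22 has H3K4me2 and H3K27me3 and no H3K27ac.

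**Figure D4:**
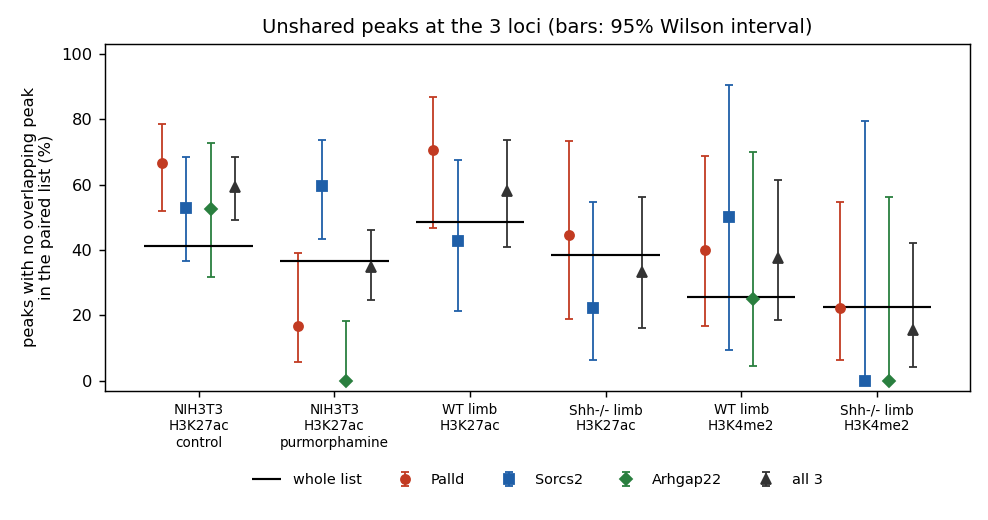
Percent of peaks with no overlapping peak in the paired list at each gene and over all 3, with 95% Wilson intervals, and in the whole list (lines), for the 6 paired lists. Sorcs2 and the other genes lie on opposite sides of the purmorphamine line, at 59.5% against 16.7% and 0%, and in the limb lists the 3-gene intervals all contain the line.

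Genes with related roles were counted in the same way in NIH3T3 cells. Among 10 genes of the palladin family and of proteins that bind palladin, 9 had a control peak, and 5 had more base pairs under control peaks against 3 with more under purmorphamine peaks. Eps8, an actin capping and bundling protein, was higher in control by 6.92 percentage points (33 of 51 control peaks control-only), and the actin crosslinker Actn1 by 2.88 (17 of 32). Its paralogue Actn4 was higher with purmorphamine by 4.61 points (33850 against 26050 bp), and so was Lasp1, a focal adhesion protein (14800 against 9750 bp). Of the peaks of these genes 38.3% (31.1 to 45.9) were control-only and 32.5% (25.6 to 40.2) purmorphamine-only.

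Among 6 VPS10 receptors and neurotrophin partners, Sorcs1 and Sorcs3, the closest relatives of Sorcs2, had no NIH3T3 peak, and Ngfr, the gene of the p75 receptor, had 1 purmorphamine peak of 150 bp. The neurotrophin gene Bdnf had 12900 bp under purmorphamine peaks against 10450 bp under control peaks. The sorting receptor genes Sort1 (6612 bp in control and 5712 bp with purmorphamine) and Sorl1 (17450 and 18930 bp) had peaks in both lists. Over the 6 genes 15 of 46 control peaks were control-only (32.6%, 20.9 to 47.0) and 23 of 52 purmorphamine peaks purmorphamine-only (44.2%, 31.6 to 57.7). Of these genes 1 had more base pairs under control peaks and 3 had more under purmorphamine peaks.

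Among 7 relatives and partners of Arhgap22, 5 had more base pairs under control peaks and 2 more under purmorphamine peaks. Arhgap25, a Rac-directed GTPase-activating protein of the same family, was higher in control by 5.19 points (12 of 17 control peaks control-only, 1 of 8 purmorphamine peaks purmorphamine-only). Arhgap24, the other member of that family, was higher by 1.09 points (26 of 43 and 17 of 34), and Rac1 by 2.45 (7 of 14 and 0 of 10). Rhoa was at 12350 and 12200 bp. Of the control peaks of this group 38.6% (30.8 to 47.2) were control-only, and of the purmorphamine peaks 28.3% (20.6 to 37.5) were purmorphamine-only. The control-only intervals of all 3 groups contain the 41.1% of the whole control list, and their purmorphamine-only intervals the 36.5% of the purmorphamine list.

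**Figure D5:**
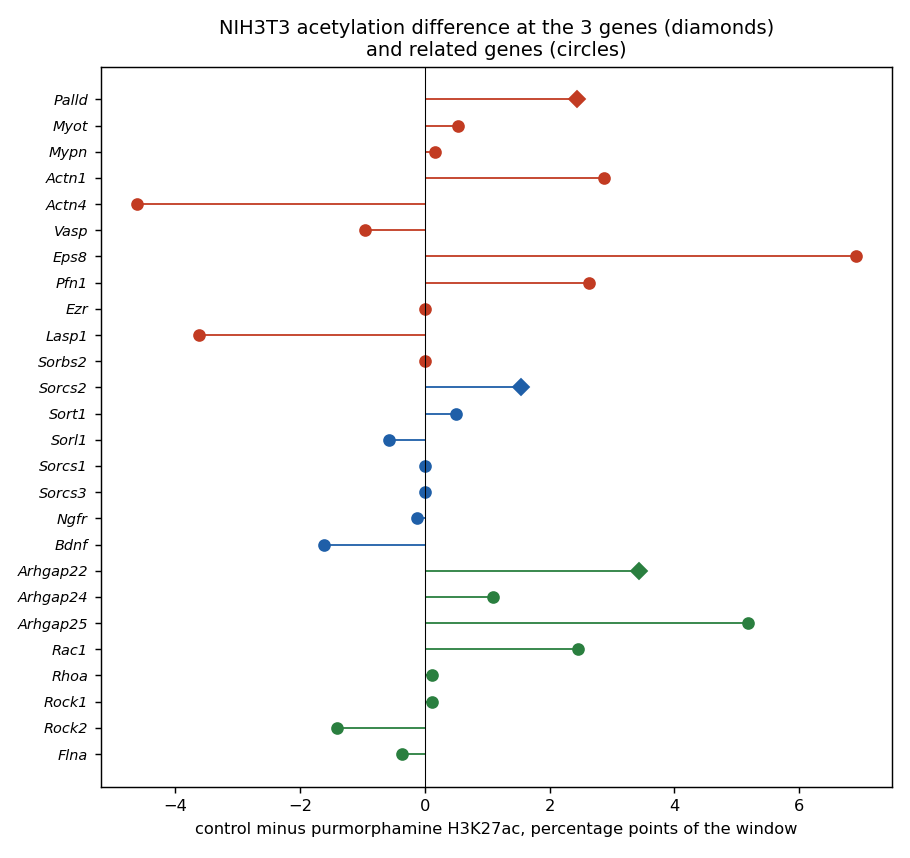
Control minus purmorphamine share of each gene's window under NIH3T3 H3K27ac peaks, in percentage points, for the 3 genes (diamonds) and the genes related to each (circles of the same colour). Values right of 0 are higher in control; Eps8 at 6.92 and Arhgap25 at 5.19 lie beyond the 3 genes, and Actn4 lies lowest.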

How the data were processed

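Groups came from the sample labels. The submitters' processing notes name Bowtie2 2.2.5, limma and mm10. By the study's methods the authors called peaks with CisGenome. The deposited lists are 1 per condition, and how replicates were combined is not given in the sources used here. The labels list 1 input per condition for limb H3K27ac and H3K4me2 and 2 for the others. The lists do not show how deeply each library was sequenced, and the study's methods state only a minimum. For each peak the authors deposited a rank, a position and a length, an FDR (a q-value), a score (their largest ChIP statistic, which orders the rank), the highest log2 value of ChIP over input in the peak, and a −log10 Poisson p-value with a cap of 100. No new normalisation was applied, and the lists were used whole. The highest FDR was 0.0673 for Shh-/- limb H3K27ac, 0.113 and 0.115 for WT and Shh-/- H3K4me2, and 0.255 for H3K27me3.

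Peak ends lay within GRCm38 chromosome lengths. Coordinates are given as deposited and were read as 1-based. Genes came from GENCODE basic vM21. Peaks overlapping by 1 bp or more were called shared. Overlap code was checked on simulated intervals and against bedtools 2.31.1. Shares carry 95% Wilson intervals for counting error. No test was run, because each condition has 1 list.

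The genes, gene lists and motifs were chosen with earlier results of these data known. Named were the 3 genes, the unshared NIH3T3 peaks in the better-ranked 50% of a list, the best-ranked peak of each list, peaks at each gene's starts, neighbouring coding genes, the next 3 control-only peaks, related genes and, by likeness, 3 genes each. A start had a peak within 500 bp. For markers it was a peak from 2 kb before to 1 kb after. Individual peaks outside this rule were named after their values were seen. A sequence and 1 related gene are not reported here.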

Additional observations from a re-analysis of the deposited data

How the results depend on the processing

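No paired analysis was possible because each condition has 1 list, so no replicate could be left out either, and the lists give no depth per library. Of 106 alternatives 87 left their value within its interval or within 1.5 times, and 19 moved it. The 18 that concern signed differences kept the sign. Requiring an overlap of 50% of the peak gave a control-only share of 73.5% and a WT-only H3K27ac share of 74.2%. Counting a gap of up to 500 bp as shared gave 45.9% control-only and 20.8% purmorphamine-only. Next, the better-ranked 50% of the counted list was set against the whole other list. The shares were 35.8% (control-only) and 6.90% (purmorphamine-only), beside 16.9% and 16% of all peaks in those 50%. WT-only H3K27ac peaks were 6 of 15 (40%) and Shh-/- only ones 0 of 6. WT-only H3K4me2 peaks were 0 of 7 and Shh-/- only ones 0 of 9. Control-only peaks numbered 9 at Palld, 7 at Sorcs2 and 3 at Arhgap22, each count including the peak that chose the gene. With the better-ranked 50% of both lists, purmorphamine-only peaks were 10.3%, WT-only H3K4me2 peaks 14.3%, and control-only peaks 12 at Palld and 11 at Sorcs2. Counted as base pairs the purmorphamine-only share was 21.7%. Put the other way, 78.3% of base pairs under purmorphamine peaks were under control peaks, beside 70.4% over the whole list. With no flank the Arhgap22 difference was 5.48 points. Keeping peaks with an FDR under 0.05 left 4 of 15 Shh-/- H3K27ac peaks Shh-/- only, in place of 6 of 18. These settings count fewer or other peaks by construction. No other share of the whole lists is given for these settings, so the remaining shares have no background beside them. The share without the peaks that chose the genes was added after seeing the data.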

Other observations

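The genes whose windows were most like each of the 3 over all 7 lists were found by the distance between the square roots of the covered percents, among windows of a length within 25%. Nearest to Palld among 447 windows were Itpr1 (distance 0.339), Arhgap26 (0.425) and Mgat5 (0.478). Itpr1 encodes a calcium release channel of the endoplasmic reticulum, and its window was covered to 4.13% in control and 3.01% with purmorphamine. Arhgap26 was at 5.64% and 2.40%, and Mgat5 at 3.95% and 2.91%. Nearest to Sorcs2 among 471 windows were Chchd3 (0.467), Focad (0.510) and Snx29 (0.515). Chchd3 was at 5.84% and 2.56%, Focad at 5.01% and 2.23%, and Snx29 at 4.71% and 4.32%. Nearest to Arhgap22 among 1856 windows was the Polycomb gene Pcgf5 (0.370), with 5.83% in control, 3.39% with purmorphamine, no limb H3K27ac, and 1.22% under H3K27me3 in Shh-/- limb buds. B3gnt2 (0.665) and Syn2 (0.724) followed. In control and with purmorphamine, B3gnt2 was at 3.55% and 3.50%, and Syn2 at 4.61% and 2.41%.

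The GLI motif was also searched over the whole windows. It occurred 3 times at Palld, 5 times at Sorcs2 and 3 times at Arhgap22, and 1 of these matches lay in a peak, a control peak in a Palld intron (match at chr8:61605845-61605853). That peak was overlapped by peaks of the purmorphamine list and of both limb H3K27ac lists. For the 58 control-only peaks of the 3 windows, the 300 bases around the middle were searched. Their median width was 200 bp, so these bases often reached beyond the peak. They held the E-box for 17 peaks (29.3%, beside 15.2% of all control-only peaks) and the RUNX motif for 18 (31.0%, beside 21.2%). AP-1 was in 6 (10.3%, beside 11.0%), TEAD in 12 (20.7%, beside 16.6%), and the GLI motif and the CArG box in none (beside 0.201% and 1.47%). These shares were not tested.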
